A study of Homo sapiens with 6 samples.

Results

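The genes described here encode receptors and ligands of the epidermal growth factor receptor (EGFR) family, with the receptor inhibitor ERRFI1. They were chosen by name, and all 10 were found among the 58174 genes of the table: the receptors EGFR, ERBB2 and ERBB3, the ligands AREG, EREG, HBEGF, TGFA, BTC and NRG1, and ERRFI1. The series asks how the microRNA miR-27a-3p bears on cisplatin sensitivity in hepatocellular carcinoma, and its labels name no cisplatin. Cells labelled Huh-7, an established human hepatocellular carcinoma line grown with fetal bovine serum, were transfected by lipid reagent with miR-27a-3p mimics (3 samples) or with a negative control called NC (3 samples), and both groups were taken after 48 h. No label says that the 3 samples of a group came from different cultures. The p-values therefore reflect sample-to-sample spread alone, and that spread may be technical.

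Receptors of this family sit in the cell membrane, pair when a ligand binds, and signal through the RAS-ERK and PI3K-AKT pathways. The ligands are made as membrane-anchored precursors that proteases of the ADAM family cut free, so a cell can stimulate itself and its neighbours. AREG and TGFA bind EGFR, EREG, HBEGF and BTC bind EGFR and ERBB4, and NRG1 binds ERBB3 and ERBB4. ERBB2 has no known ligand and acts as a partner for the others, and ERBB3 has little kinase activity of its own. ERRFI1, also called MIG6, binds the EGFR kinase domain and dampens it as a feedback inhibitor. In liver the family is known for its part in regeneration and in hepatocyte growth.

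Some features of the libraries bear on every value below. The labelled cell type was not matched by its markers. Of 14 hepatocyte and fetal liver genes, 13 were below 1 FPKM in all 6 samples and 11 were below 0.1, and TTR, APOA2, APOB and APOH were listed at 0 throughout. The albumin gene ALB and the fetal liver gene AFP did not exceed 0.0110 and 0.0237 FPKM. The 14 genes summed to between 1.18 and 2.13 FPKM in controls and between 0.950 and 1.31 in mimic samples. Of 12 marker genes of immune, mural and endothelial cells, 7 were below 1 FPKM in all samples, including the leukocyte gene PTPRC. The 12 summed to 42.7 to 50.3 FPKM in controls and 32.3 to 41.4 in mimic samples, nearly all of it from COL1A1, ACTA2 and CD68. COL1A1 fell from 17.4 ± 0.408 to 7.99 ± 1.43 FPKM, ACTA2 fell from 18.2 ± 2.65 to 11.6 ± 1.96, and CD68 rose from 8.17 ± 0.758 to 16.2 ± 4.71 (SD, n = 3), the ACTA2 call being lost after the scaling described below. The part of these shifts in the results below was not tested. Mitochondrial genes held 16.9% to 32.8% of summed FPKM in controls and 14.6% to 38.9% in mimic samples, highest in sample 3 of both groups. Read totals are not given. FPKM times gene length piled up at a shared value in each sample, and taking that value as 1 fragment implies 17000000 to 21100000 fragments per control and 25100000 to 31000000 per mimic sample. Genes at 1 FPKM or more numbered 15109 to 15494 in controls and 13007 to 13250 in mimic samples. The groups stood apart in both, though the fragment totals are uncertain. Only 9.53% to 13.5% of low values were whole multiples, within 1%, of the implied fragment. The part of these differences in the results was not tested.

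The transfected microRNA and its possible pairing sites in the family are shown as sequence. Whether they bear on the changes was not tested. The mature sequence is from RefSeq (GRCh38.p14, chromosome 19, 13836447 to 13836467, minus strand), with the seed, bases 2 to 8, in capitals. A seed match in a 3' UTR is ACTGTGA (7mer-m8), ACTGTGAA (8mer) or CTGTGAA (7mer-A1).
hsa-miR-27a-3p: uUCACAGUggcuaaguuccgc
Among the 3' UTRs of the principal GENCODE 29 transcripts (hg38) reported here, which leave out that of TGFA, EGFR and HBEGF held an 8mer, while ERBB3 held a 7mer-A1. The sites follow, in capitals within 30 bases of the sense strand. Positions are chr7:55205806-55205835, chr7:55206036-55206065, chr7:55207507-55207536 and chr7:55208239-55208268 on the plus strand for EGFR, chr5:140333784-140333813 on the minus strand for HBEGF and chr12:56102511-56102540 on the plus strand for ERBB3.
EGFR 8mer: tttgtcttcaaACTGTGAAgcatttacaga
EGFR 7mer-m8, nearest the 8mer: atccaggcccaACTGTGAgcaaggagcaca
EGFR 7mer-m8, middle: atcagccaggcACTGTGAgagcacagagca
EGFR 7mer-m8, most distal: cggatctggcgACTGTGAtgggcaggtcag
HBEGF 8mer: ttgatgagttaACTGTGAAataccacaagc
ERBB3 7mer-A1: aagcttaaaatCTGTGAAgaaagaggttag
EGFR held 4 matches in a UTR of 6011 bases, and 67.0% of 569 tested genes with UTRs of 0.8 to 1.25 times that length held a match of any class (19.7% an 8mer). For HBEGF, with a UTR of 1456 bases, the shares were 27.4% and 6.10% of 1704 genes. For ERBB3, with a UTR of 1450 bases, 27.4% of 1705 genes held a match of any class. No match was found in the searched UTRs of AREG, EREG, BTC, ERBB2 or ERRFI1. The 3' UTR of the principal NRG1 transcript is 5 bases long in GENCODE 29, too short to hold a match, and other isoforms were not searched. A match is a description of sequence and not a measured site.

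The ligand genes HBEGF, AREG and TGFA and the inhibitor ERRFI1 were 2.34 to 3.10 times lower in mimic samples, while the receptor EGFR stayed within 1.17 times of its control mean and ERBB2 was 1.35 times higher. NRG1, a ligand of ERBB3 and ERBB4, was 3.69 times higher. Of the 10 genes, 7 averaged 1 FPKM or more across all samples and were tested with limma on log2(FPKM + 0.5) together with all other such genes. By that test 4 of the 7 fell, where 39.6% of all 14439 tested genes fell, and 1 rose, where 12.0% of all did. With so many genes called, these shares alone do not set the family apart. The groups did not overlap in 6 of the 7, against 60.5% of all tested genes. The median log2 fold change of the 7 was -0.94, and that of all tested genes was -0.29. In whole-culture RNA, fewer cells of a type and less RNA per cell cannot be told apart.

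**Figure D1:**
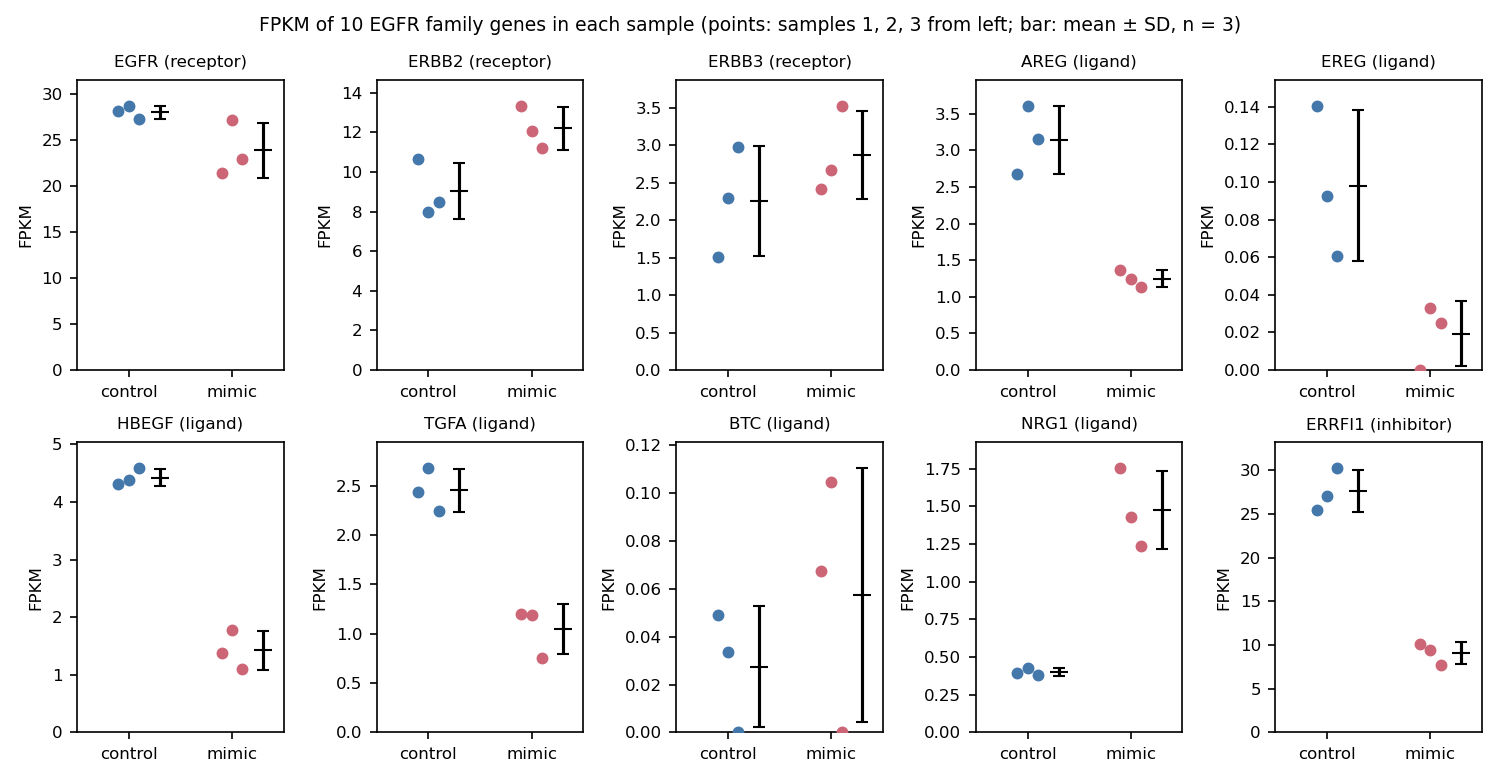
FPKM (vertical axes, each starting at 0) of the 10 genes in 3 control and 3 mimic samples, with points for samples 1, 2 and 3 from left to right and bars for mean ± SD. HBEGF, AREG, TGFA and ERRFI1 sit lower in all mimic samples, NRG1 sits higher, and ERBB3 and BTC overlap.

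Because the median of all genes lay below 0, each change was also read after median-of-ratios scaling over the tested genes, which moved the overall median to 0.02, and after quantile normalization (0.03). On the first of these scales 26.9% of all genes were lower and 27.2% higher. The family kept its counts there, with 4 lower and 1 higher of 7, where 54.1% of all genes were called in either direction. After quantile normalization 2 were lower, where 22.8% of all genes were, and 2 higher, where 24.9% were.

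EGFR, the receptor that gives the family its name, lies on chromosome 7 (55019021 to 55211628, hg38, plus strand). It was at 28.1, 28.6 and 27.2 FPKM across controls 1 to 3, and the mimic values were 21.4, 27.1 and 22.9 in the same order. Mimic sample 2 lay just under the lowest control, so the groups touch without overlapping. The log2 fold change was -0.23 (SE 0.13, 95% interval -0.54 to 0.07) and did not pass the test (limma, adjusted p = 0.177). Its sign turned after median-of-ratios scaling over the tested genes (0.09, adjusted p = 0.572, the upper end of a range from 0.0865 over 17 alternatives). A fall beyond 0.54 on the log2 scale lies outside the interval. EGFR shares 186 exonic bases with EGFR-AS1 on the other strand, which did not exceed 0.264 FPKM in any sample.

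ERBB2, on chromosome 17 (39687914 to 39730426, plus strand), was at 10.7, 7.99 and 8.49 FPKM in controls, against 13.3, 12.1 and 11.2 with the mimic. All mimic values lay above all control values, with control sample 1 close to mimic sample 3. It rose by limma (log2 fold change 0.42, SE 0.15, adjusted p = 0.0448). The call was lost without control sample 2 (adjusted p = 0.157), control sample 3 (0.117), mimic 1 (0.104) or mimic 2 (0.0910), with sample 3 left out of each group (0.110), and with no filter on low values (0.0768), and was firmer after median-of-ratios scaling over the tested genes (0.73, adjusted p = 0.00263; range 0.000927 to 0.157 over 17 alternatives). ERBB2 shares 571 exonic bases with MIEN1 on the other strand, which ranged from 12.5 to 34.7 FPKM and was highest in sample 3 of both groups, and 194 bases with PGAP3, also on the other strand, which was below ERBB2 in every sample (lowest 1.88 FPKM). The strand setting of the counting is not given, so reads of those stretches cannot be told apart.

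ERBB3, on chromosome 12 (56079857 to 56103505, plus strand), was at 1.51, 2.29 and 2.98 FPKM in controls, against 2.41, 2.67 and 3.53 with the mimic. The groups overlapped widely. The log2 fold change of 0.31 (SE 0.23, 95% interval -0.22 to 0.83) did not pass the test (limma, adjusted p = 0.287). It passed after quantile normalization (0.95, adjusted p = 0.0254) and after median-of-ratios scaling over all genes above 0 (0.72, adjusted p = 0.0457), within a range to 0.739 over 16 alternatives.

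Within each sample the receptors can be set against each other without regard to the library total. EGFR made up 71.2% ± 2.04 of the FPKM summed over the 3 receptors in controls and 61.1% ± 3.59 in mimic samples (SD, n = 3). ERBB2 took 23.0% ± 3.11 and 31.5% ± 3.83. The ERBB2 to EGFR ratio was 0.380, 0.279 and 0.312 in controls, against 0.623, 0.445 and 0.489 with the mimic. These did not overlap, and the exact two-sided permutation test gave p = 0.1, the smallest that 3 against 3 allows. The summed receptor FPKM itself was 39.3 ± 0.834 in controls and 38.9 ± 2.61 in mimic samples.

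Among the 6 listed ligands, HBEGF was the highest in controls. It encodes heparin-binding EGF-like growth factor and lies on chromosome 5 (140332843 to 140346631, minus strand). It was at 4.30, 4.38 and 4.58 FPKM in controls, against 1.38, 1.78 and 1.11 with the mimic. The highest mimic value was far below the lowest control. HBEGF fell by limma (log2 fold change -1.37, SE 0.17, adjusted p = 0.000336), and it kept the call under all 16 alternatives that tested it, with a change of -0.76 after quantile normalization (adjusted p = 0.00478; range 0.000290 to 0.00728). It is the ligand with the 8mer shown above, and whether that match bears on the fall was not tested.

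AREG encodes amphiregulin and lies on chromosome 4 (74445134 to 74455009, plus strand), in a stretch that also holds EPGN, EREG and BTC. It was at 2.67, 3.60 and 3.15 FPKM in controls, against 1.37, 1.24 and 1.14 with the mimic. The mimic samples were close together and below every control. AREG fell by limma (-1.05, SE 0.16, adjusted p = 0.000920), but not after quantile normalization (-0.39, adjusted p = 0.0820, the upper end of a range from 0.000898 over 16 alternatives).

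TGFA, the gene of transforming growth factor alpha on chromosome 2 (70447280 to 70554193, minus strand), was at 2.44, 2.68 and 2.24 FPKM in controls, against 1.20, 1.19 and 0.758 with the mimic. Again no mimic value reached a control value. TGFA fell by limma (-0.94, SE 0.18, adjusted p = 0.00265), but not after quantile normalization (-0.23, adjusted p = 0.255, the upper end of a range from 0.00228 over 16 alternatives).

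NRG1, the gene of neuregulin 1 on chromosome 8, went the other way. It was at 0.392, 0.427 and 0.378 FPKM in controls, against 1.75, 1.43 and 1.24 with the mimic, so every mimic sample was well above every control. Its mean of 0.936 FPKM over the 6 samples kept it out of the main test. In the fit with no filter on low values it rose (log2 fold change 1.13, SE 0.14, limma adjusted p = 0.00251), where 4.27% of 35796 genes rose. In 5 other alternatives it passed the filter only through its higher mimic values (adjusted p 0.000395 to 0.00914 by limma), so these add no support. The added 0.5 in that scale understates the change of so low a gene.

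EREG, the gene of epiregulin, was barely detected, at 0.140, 0.0925 and 0.0606 FPKM in controls, against 0, 0.0331 and 0.0248 with the mimic. The groups did not overlap, but with no filter on low values, where 24.5% of genes fell and 28.7% were called in all, EREG did not pass the test (log2 fold change -0.20, SE 0.08, limma adjusted p = 0.0993). BTC, the betacellulin gene, was at 0.0492, 0.0334 and 0 FPKM in controls, against 0.0673, 0.105 and 0 with the mimic. The BTC groups overlapped (0.08, SE 0.08, limma adjusted p = 0.511). At such values a listed 0 says only that no level was reported.

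The ligand makeup shifted with these changes. The FPKM summed over the 6 ligands was 10.0, 11.2 and 10.4 in controls, against 5.77, 5.77 and 4.27 with the mimic. NRG1 made up 3.79% ± 0.150 of that sum in controls and 28.0% ± 2.91 in mimic samples, and HBEGF went from 42.0% ± 2.62 to 26.9% ± 3.50 (SD, n = 3). AREG took 29.7% ± 2.75 and 23.9% ± 2.60, and TGFA 23.3% ± 1.53 and 19.7% ± 1.70. Only the BTC share overlapped between groups among the 6, but 2 others nearly touched. The AREG share was 26.7% in control sample 1 and 26.6% in mimic sample 3. The EREG share was 0.582% in control sample 3 and 0.581% in mimic sample 3. By FPKM, the groups did not overlap in 60.5% of all tested genes. The ratio of summed ligand to summed receptor FPKM was 0.249, 0.288 and 0.269 in controls, against 0.155, 0.138 and 0.113 with the mimic (exact two-sided permutation p = 0.1, the smallest possible). These sums cover the listed members only. With all 11 ligand genes of the family in the sum, NRG4, described below, made up 66.4% ± 1.98 in controls and 76.9% ± 3.45 in mimic samples, NRG1 0.925% ± 0.0574 and 5.52% ± 1.46, and HBEGF 10.2% ± 0.248 and 5.21% ± 0.679. The ratio to all 4 receptor genes was then 1.09 ± 0.0546 in controls and 0.695 ± 0.0624 in mimic samples. NRG1 and HBEGF kept their directions without overlap, at far smaller shares.

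**Figure D2:**
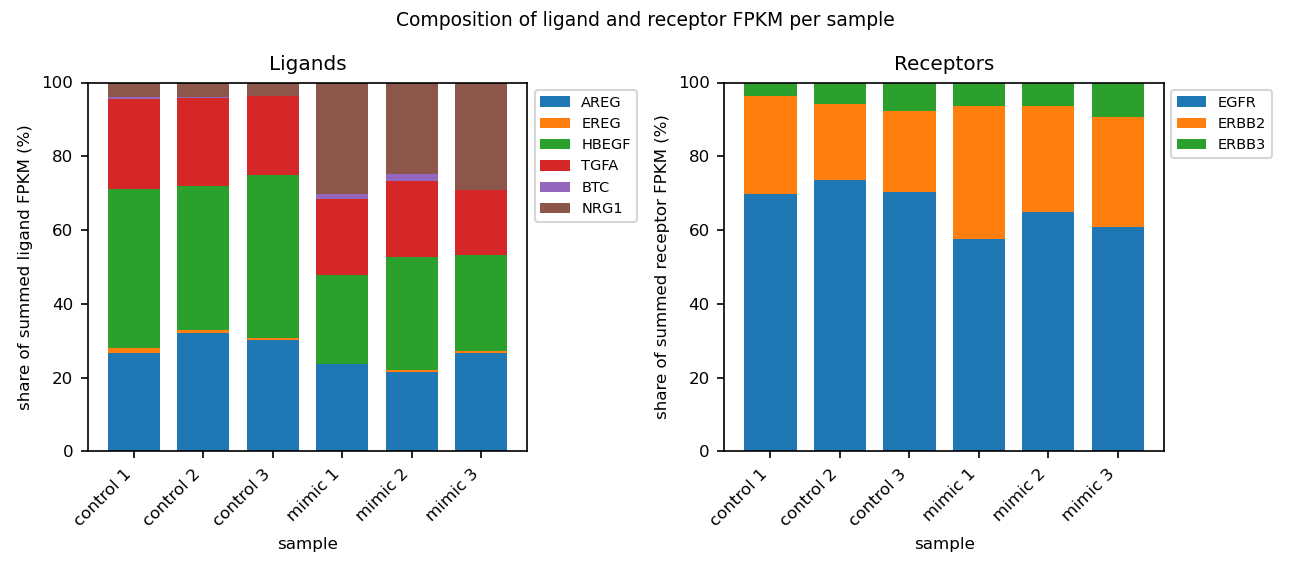
Share in percent (vertical axes) of each gene in the FPKM summed over the 6 ligands (left) and the 3 receptors (right), with a stacked bar for each sample. NRG1 takes 3.63% to 3.92% of the ligand sum in controls and 24.8% to 30.3% in mimic samples, and ERBB2 a larger part of the receptor sum in mimic samples.

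ERRFI1, on chromosome 1 (8004404 to 8026308, minus strand), had the largest log2 fold change of the 7 tested members, though the ratio of means in FPKM was slightly larger for HBEGF (3.10 against 3.03). It was at 25.5, 27.0 and 30.2 FPKM in controls, against 10.1, 9.48 and 7.71 with the mimic. The control values matched those of EGFR in size, while the mimic values fell short of them in every sample. ERRFI1 fell by limma (log2 fold change -1.55, SE 0.15, adjusted p = 0.000119) and kept the call under all 17 alternatives (-1.63 to -1.07, adjusted p 0.000114 to 0.00372). It shares 155 exonic bases with AL034417.4 on the other strand, a gene for which no FPKM was found. The ERRFI1 to EGFR ratio was 0.909, 0.945 and 1.11 in controls, against 0.473, 0.349 and 0.337 with the mimic (exact two-sided permutation p = 0.1, the smallest possible).

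**Figure D3:**
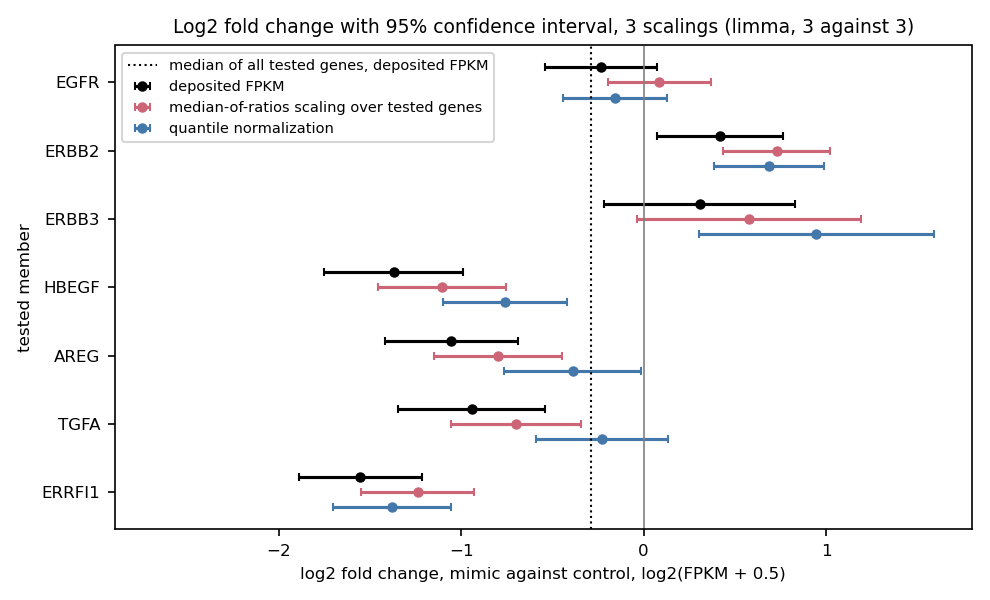
Log2 fold change of mimic against control (horizontal axis) with its 95% interval for the 7 tested members for FPKM as deposited, with median-of-ratios scaling over the tested genes and with quantile normalization. The dotted line marks the median of all tested genes on the deposited scale, -0.29. HBEGF and ERRFI1 stay below 0 on all 3 scales, the interval of TGFA reaches 0 after quantile normalization, and EGFR changes sign.

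By level, FPKM being scaled to gene length, EGFR (28.0 ± 0.695) and ERRFI1 (27.6 ± 2.41) led in controls and overlapped each other. ERBB2 and HBEGF followed, each apart from its neighbours, then AREG, TGFA and ERBB3, where each overlapped the next, and NRG1, EREG and BTC, with no overlap between their ranges. In mimic samples the order was EGFR, ERBB2, ERRFI1 and ERBB3, none overlapping its neighbour, and then NRG1, HBEGF, AREG and TGFA, each overlapping the next. BTC and EREG were lowest and overlapped.

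Sequence features that the choice of genes did not use were also compared. The word ATTTA, the core of AU-rich elements that are known to destabilise early-response mRNAs, occurred 4 times in the 269 bases of the AREG 3' UTR, where the median of 909 tested genes of like UTR length was 0. It occurred 5 times in HBEGF and 5 in ERRFI1 (median 3 for both), 13 times in TGFA (median 8), 20 times in EREG (median 9) and 12 times in BTC (median 4). The receptors were at or below the median of like length, with 9 in EGFR (median 13), 2 in ERBB3 (median 2) and 0 in ERBB2 (median 1). The longer word TATTTAT, which contains ATTTA, occurred in AREG, EREG, HBEGF, TGFA and ERRFI1 and in neither BTC nor the 3 receptors. TATTTAT occurred in 32.2% of 11457 tested genes with a UTR. Among tested genes of like UTR length the share was 65.7% for EREG, 62.3% for TGFA, 34.6% for ERRFI1, 33.6% for HBEGF and 11% for AREG. For the genes named as lacking TATTTAT it was 73.8% for EGFR, 40.7% for BTC, 33.3% for ERBB3 and 18.8% for ERBB2. Whether these words bear on the changes was not tested.

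The RefSeq promoter table (GRCh38.p14, 250 bases before to 50 after the start) held windows for 8 of the 10 genes. The cAMP response element TGACGTCA, searched on both strands, was found in AREG alone among the 8, and in 1.85% of all 35116 windows. It lies 65 bases before the start, and the word TATAAA lies 29 bases before it in AREG and 32 before it in EREG, the neighbour on the same strand. TATAAA was found in 11.5% of all windows, and among the 8 genes also in the second EGFR window. The AP-1 word TGANTCA was found in ERBB2 and in the second EGFR window, and in 7.71% of all windows. The AREG and EREG windows are shown because these adjacent ligand genes differ in the first word and share the second (chr4:74445060-74445089, chr4:74445096-74445125 and chr4:74365102-74365131, plus strand, words in capitals).
AREG, cAMP response element: cggccgggcctTGACGTCAtgggctgcggc
AREG, TATA word: ccggctgagccTATAAAgcggcaggtgcgc
EREG, TATA word: gggctccctagTATAAAgttcgcagcacca
A word in this window is not a measured binding site.

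Genes with profiles closest to those of the most changed called receptor and ligand were named by the root mean square difference of centred log2 values over the 6 samples, among 8649 protein-coding genes averaging 5 FPKM or more. Closest to HBEGF were RASA2, which encodes a RAS GTPase-activating protein (difference 0.04, from 8.01 ± 0.338 to 2.93 ± 0.578 FPKM), MFSD8 (0.06) and MYBL1 (0.07). Closest to ERBB2 were STRAP (0.05, from 80.5 ± 8.94 to 113.5 ± 10.5 FPKM), PRMT2 (0.07) and ANXA3 (0.07).

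Of the 6 other receptors and ligands of the family, 2 could be tested and both fell, where 39.6% of all tested genes did, and after scaling 1 of the 2 was called. NRG2, a further neuregulin, was at 2.68, 1.93 and 2.40 FPKM in controls, against 0.480, 0.639 and 0.450 with the mimic (log2 fold change -1.47, SE 0.17, limma adjusted p = 0.000299). All mimic values of NRG2 were below 1 FPKM. It passed the filter only through its higher control values, so its call adds no support. NRG4, a ligand of ERBB4, had a level near that of EGFR, from 28.7 ± 1.60 to 21.0 ± 3.92 FPKM (-0.45, limma adjusted p = 0.0391). Its call was lost after median-of-ratios scaling over the tested genes (-0.14, adjusted p = 0.485). The founding ligand gene EGF was below the filter, at 1.91, 1.33 and 0.888 FPKM in controls, against 0.129, 0.259 and 0.309 with the mimic, and every mimic sample was under every control. ERBB4, the receptor for several of these ligands, did not exceed 0.315 FPKM, EPGN did not exceed 0.402, and NRG3 was listed at 0 in all samples.

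Of 10 tested genes of ligand release and processing, 3 were higher and 2 lower (4 and 0 after median-of-ratios scaling over the tested genes). The higher ones include TIMP3, whose product inhibits release. Over all tested genes 12.0% were higher and 39.6% lower (27.2% and 26.9% after scaling), and a list this short is not set apart by its counts. TIMP3, an inhibitor of the ligand-cleaving proteases, rose from 8.56 ± 0.893 to 26.0 ± 1.25 FPKM (log2 fold change 1.55, SE 0.13, limma adjusted p = 7.71e-05). The proprotein convertase gene FURIN rose (0.78), and RHBDF1, which encodes an iRhom that carries ADAM17, fell by 0.71 on the log2 scale, a call lost on the scaled values (-0.42, adjusted p = 0.0964). ADAM17, the main ligand sheddase, had a change of -0.29 that did not pass (limma adjusted p = 0.108).

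The counts of the next 4 lists are to be read against 39.6% lower and 12.0% higher over all tested genes (26.9% and 27.2% after scaling), and each had a smaller share of lower genes than that before scaling. Among adaptors and effectors next to the receptors, 4 of 14 were lower and 1 higher (2 and 7 after scaling). PLCG1, a phospholipase that docks on active EGFR, fell from 22.7 to 10.3 FPKM (-1.12, SE 0.14), the docking protein gene GAB1 fell (-0.74) and its relative GAB2 rose (0.61). Of 19 genes of receptor attenuation and trafficking, 5 were lower and 2 higher (2 and 6 after scaling). LRIG1, whose product restrains ERBB receptors, fell from 1.75 to 0.781 FPKM (-0.80). It passed the filter only through its higher control values, so its call adds no support. LRIG2 also fell (-0.93), while EPN1, an endocytic adaptor gene, rose from 8.96 to 36.9 FPKM (1.98, SE 0.12). In the RAS-RAF-MEK-ERK core, 5 of 14 were lower and 4 higher (1 and 8 after scaling). NF1, whose product restrains RAS, fell (-0.74, adjusted p = 0.0754 on the scaled values), and the MEK2 gene MAP2K2 rose (1.12, SE 0.16). The PI3K-AKT-mTOR list had 3 of 14 lower and 2 higher (2 and 5 after scaling), with RICTOR (-1.58) and AKT2 (-0.56, adjusted p = 0.103 on the scaled values) among the lower.

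ERK-responsive and feedback genes, read as output of the pathway in many cell types, were lower in 9 of 16 and higher in 1. Over the whole tested set 39.6% fell and 12.0% rose, with 51.6% called in either direction. On the scaled values 6 of the 16 fell and 2 rose, so 50% of the list was called. The whole set then had 54.1% called, with 26.9% falling and 27.2% rising. By its total of calls the list was thus not above the whole set on that scale. The median log2 fold change of the list was -0.63, where that of all tested genes was -0.29. On the scaled values these medians were -0.32 and 0.02. The ERK phosphatase gene DUSP6 fell from 22.7 to 2.77 FPKM (-2.83, SE 0.14, limma adjusted p = 1.07e-05), DUSP5 fell from 111.8 to 10.8 (-3.34, SE 0.17), and the early transcription factor gene EGR1 had the largest fall of the list (-6.32, SE 0.17). ETV5, an ETS factor gene, was the member that rose (0.51). These lists were drawn up with earlier results of these data known, so the counts are descriptions.

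**Figure D4:**
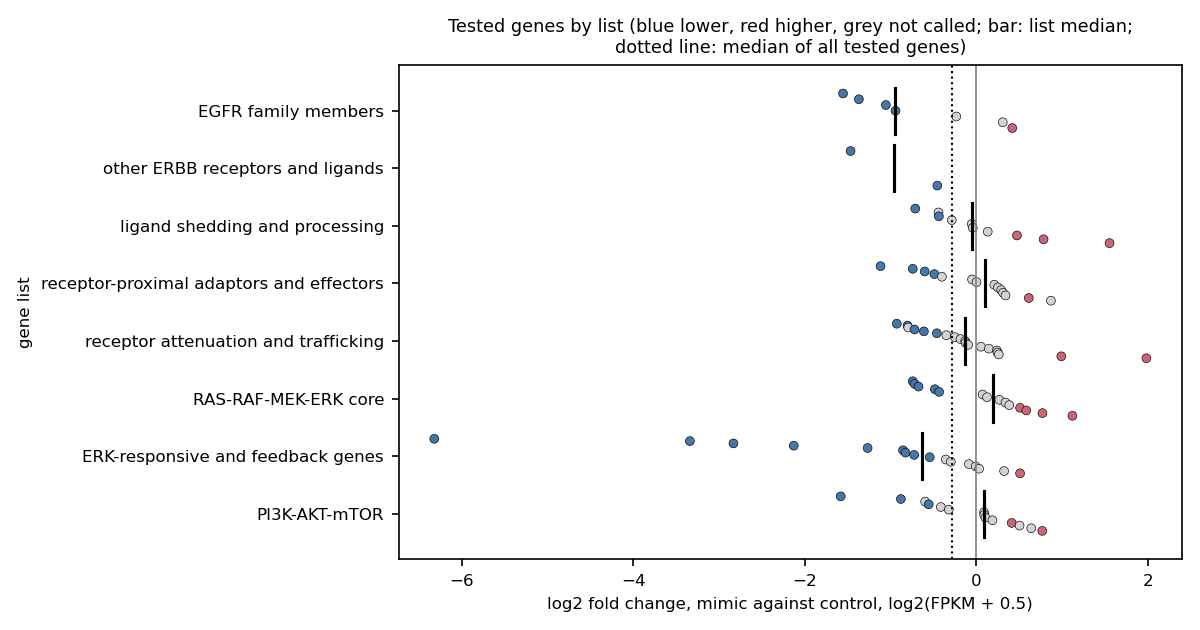
Log2 fold change of mimic against control (horizontal axis) for the tested genes of each list (rows), with list medians as bars and the median of all tested genes as a dotted line. Blue points were lower, red points higher and grey points not called by limma, and the ERK-responsive list extends farthest to the left, to -6.32.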

How the data were processed

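RNA sequencing of 3 mimic and 3 control samples was used, with groups taken from the treatment label. The deposited tables hold 1 FPKM value per gene and sample, per the file headers. HISAT2, FastQC and hg38 are named by the submitters' processing notes. Not given in the sources used here are tool versions, the quantifier, strand handling and the gene annotation. The 6 single-sample tables held the same values as the series table. FPKM are relative to length and library total, so other genes' shares can move a value.

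Genes averaging 1 FPKM or more (14439) were tested with limma-trend (limma 3.58.1, R 4.3.3, robust) on log2(FPKM + 0.5), mimic against control, with Benjamini-Hochberg adjustment at 0.05 over all of them. The files hold no counts, so the planned count tests were not used. The step was tested on simulated data in which 200 of 14439 genes were changed. That is far fewer than the 7453 called here, so the simulation cannot show how the step behaves with changes this widespread. Only 9.53% to 13.5% of low values were whole multiples, within 1%, of the implied fragment, so reads per gene were not recovered and no counting interval is given.

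Gene models came from GENCODE 29, whose identifiers matched 57836 genes. The principal protein-coding transcript with the longest 3' UTR was searched. Members, lists and the naming rule (all members, up to 3 called genes with the smallest p per list, and the 3 nearest profiles) were chosen with earlier results of these data known. EGF and other uncalled genes are named after their values were seen. Some genes that the rule would name, and the seed search in TGFA, are not reported here. No protein sequences were used here.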

Additional observations from a re-analysis of the deposited data

How the results depend on the processing

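HBEGF and ERRFI1 kept direction and call in all alternatives that tested them. The planned median-of-ratios scaling used all genes above 0, many of them low, and a version over the tested genes was added after seeing the data, as was leaving out sample 3 of both groups. Calls over all genes (7453) numbered 4354 at a mean of at least 5 FPKM. Higher calls numbered 5076 after the planned scaling, 3895 after scaling over tested genes and 3592 after quantile normalization. Lower calls numbered 2916 at a mean of at least 5 FPKM, 8755 with no filter, 2975 after the planned scaling and 3289 after quantile normalization. At a mean of at least 5 FPKM only 2 family members were called, 1 of them lower, and 0 ligands, since fewer genes were tested. After quantile normalization 2 members were lower and 2 higher, with 2 receptors and 1 ligand called. After the planned scaling 3 members were higher, with 2 receptors called, and EGFR turned to 0.26. It also turned, to 0.086, after scaling over tested genes. Receptor calls were 0 with no filter and 0 without sample 3 of both groups, where ERBB2 was at adjusted p of 0.0768 and 0.110 by limma.

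Leaving out each sample in turn gave 4 to 6 family calls, with 4 lower throughout and 0 to 2 higher, 0 to 1 receptors and 3 to 4 ligands. It gave 5792 to 7459 calls over all genes. In the pathway lists lower calls were 11 after the planned scaling and 14 after scaling over tested genes or quantile normalization, and higher calls were 42, 32 and 27 on those scales. Without each sample in turn the higher calls of the lists were 7 to 13, the 7 without control sample 3. With all 11 ligand genes in the sum, added after seeing the data, the differences in share were -2.61 points for AREG, -0.16 for EREG, -5.04 for HBEGF, -1.81 for TGFA and 4.59 for NRG1, each smaller since the sum is larger.

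With the replicate number as a block, 8111 genes were called against 7453, and 5 family members as without it. Deviations of same-numbered samples had correlations of 0.18, -0.05 and 0.22, and those of different-numbered samples ran from -0.28 to 0.13. Samples 1 and 3 thus lay above every different-numbered value, and sample 2 did not. Since the same-numbered samples did not all deviate together, the numbers were not taken as pairs. Whether same-numbered samples shared handling was not tested.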
